A study of Mus musculus with 6 samples.

Results

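Nqo1, Sod2, Srxn1 and Slc7a11 are 4 antioxidant genes that are each linked to the transcription factor Nrf2. They were taken by name from a table of 3201 genes measured by RNA-seq in whole livers of male mice, and all 4 were found. They were selected on their level in this same contrast, in which Nqo1 and Sod2 were lower and Srxn1 and Slc7a11 higher, so their levels are given here as a description with no test. The table covered 3 livers of Fgf18 f/f mice, in which both copies of Fgf18 carry loxP sites but are intact, and 3 livers of Fgf18 △HSC mice, in which a Cre driven by the GFAP promoter removes the gene from hepatic stellate cells (HSCs), which store vitamin A beside the liver sinusoid. All 6 livers had gone through 1 h of ischemia and 6 h of reperfusion, and uninjured livers were not analysed here. The age of the mice was not given in the sources used here. The labels call the first group only "IR", and its genotype was taken from the methods of the study. The GFAP promoter is not active in HSCs alone, and the level of Fgf18 was not analysed here, so the deletion could not be checked in these livers.

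Nrf2 is held in the cytoplasm and sent for degradation by Keap1. When oxidants or electrophiles modify Keap1, Nrf2 escapes, enters the nucleus with a small Maf protein and binds antioxidant response elements, while Bach1 competes for the same elements. The genes it induces make glutathione, detoxify quinones and electrophiles and repair oxidised proteins. Many of them answer to other regulators as well. Nqo1, which reduces quinones with NADH or NADPH, is also induced by the aryl hydrocarbon receptor (AhR). Sod2, the manganese superoxide dismutase of mitochondria, is a textbook target of NF-kB and of FoxO factors. Srxn1, or sulfiredoxin, which returns over-oxidised peroxiredoxins to activity, is also induced by AP-1. Slc7a11, the light chain of the cystine and glutamate exchanger that supplies cysteine for glutathione, is also induced by ATF4 when amino acids run short and is repressed by p53.

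The deposited table is not a transcriptome. Each of its 3201 genes had passed a limit on fold change and unadjusted p in the authors' own comparison of these 6 livers, so nearly every gene in it differs. Across the table the groups did not overlap in 96.3% of genes (62.0% higher and 34.3% lower in Fgf18 △HSC livers). In the limma comparison a gene passed where its absolute log2 difference was above 1 and its p, adjusted after Benjamini and Hochberg, was under 0.05, which held for 71.7% of genes, 41.6% as higher and 30.0% as lower. The comparison reuses the livers on which the genes had been selected, and 3119 of the 3201 had an unadjusted limma p under 0.05. Its calls and adjusted p-values, given below for other genes, are therefore a description and not independent evidence of a difference. The median log2 difference over all genes was 0.88. Values were taken as TPM (reads divided by gene length and scaled to one total per library), although the table does not name the unit and FPKM could not be told apart from it. Differences are given on the scale of log2(TPM + 0.1), as Fgf18 △HSC minus Fgf18 f/f. The value of a single read on 1 kb of exon was 0.0374 to 0.0655 TPM across the 6 libraries. The listed genes held 7.14 to 7.93% of all TPM in Fgf18 f/f livers and 3.89 to 3.99% in Fgf18 △HSC livers. Nothing in the labels says how the libraries were batched. The labels number the livers but do not say that they are separate animals, so SDs measure the spread between these samples. Each SE is the moderated one of the limma fit, which also draws on the variance of other genes in the table.

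The 250 bases before the start of each of the 4 genes are shown because several of the regulators known for these genes have a motif that can be looked for there. Sequences are from RefSeq on GRCm38.p6, written 5′ to 3′ on the strand of the gene. The windows are, for Nqo1, chr8:107403206-107403455 (minus strand), for Sod2 chr17:13007589-13007838 (plus), for Srxn1 chr2:152105274-152105523 (plus) and for Slc7a11 chr3:50443614-50443863 (minus). The annotated gene of Sod2 begins upstream of this RefSeq start, so its window lies inside the gene. Capitals mark every match, on either strand, to a motif searched.
Nqo1: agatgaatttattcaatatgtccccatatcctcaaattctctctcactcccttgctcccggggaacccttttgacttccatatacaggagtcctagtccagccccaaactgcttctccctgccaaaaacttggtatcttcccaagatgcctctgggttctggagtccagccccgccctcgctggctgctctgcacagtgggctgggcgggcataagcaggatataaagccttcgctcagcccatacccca
Sod2: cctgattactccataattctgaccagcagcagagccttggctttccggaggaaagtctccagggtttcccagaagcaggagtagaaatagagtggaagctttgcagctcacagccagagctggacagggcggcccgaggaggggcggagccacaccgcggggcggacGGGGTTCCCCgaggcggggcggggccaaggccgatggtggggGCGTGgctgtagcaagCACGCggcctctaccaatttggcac
Srxn1: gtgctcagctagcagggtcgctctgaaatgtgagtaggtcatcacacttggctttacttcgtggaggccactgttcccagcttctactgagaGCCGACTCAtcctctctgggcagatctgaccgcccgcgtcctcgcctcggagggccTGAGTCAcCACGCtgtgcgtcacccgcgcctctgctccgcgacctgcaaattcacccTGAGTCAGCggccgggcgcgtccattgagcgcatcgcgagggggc
Slc7a11: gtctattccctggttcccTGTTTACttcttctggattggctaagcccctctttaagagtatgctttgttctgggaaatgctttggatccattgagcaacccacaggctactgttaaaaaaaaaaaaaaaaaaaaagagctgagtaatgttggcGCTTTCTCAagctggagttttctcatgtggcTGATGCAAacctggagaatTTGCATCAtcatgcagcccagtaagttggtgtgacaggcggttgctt

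The motifs searched were the cores of the antioxidant response element (TGACNNNGC, and TGAGNNNGC, which was added after the sequences had been seen), the AP-1 site (TGANTCA), the ATF4 and C/EBP site (TGATGNAA), the AhR core (GCGTG), the FoxO site (TGTTTAC) and the NF-kB consensus. Nqo1 held no match to any of them in this window. Sod2 held an NF-kB match, GGGGTTCCCC, 83 to 74 bases before the start, and 2 AhR cores nearer to it. Srxn1 held 2 copies of the AP-1 site TGAGTCA, at 102 to 96 and at 45 to 39 bases before the start. The nearer copy lies inside a match to the antioxidant element, TGAGTCAGC, so the same bases count for both, and a further match to that element, on the other strand, lies 158 to 150 bases before the start. An AhR core lies at 94 to 90 bases. Slc7a11 held 2 copies of the ATF4 and C/EBP site TGATGCAA, at 66 to 59 bases on the strand of the gene and at 47 to 40 bases on the other, together with a match to the antioxidant element at 97 to 89 bases and a FoxO match at 232 to 226 bases. Of 32851 mouse promoters of the same window, 6.75% held the AP-1 site, 3.45% the ATF4 and C/EBP site, 7.25% the NF-kB consensus, 28.2% the AhR core, 3.17% the FoxO site, and 10.2 and 14.4% the antioxidant cores with TGAC and TGAG. All antioxidant element matches given above were to TGAGNNNGC, the core added later. TGACNNNGC had no match in the 250 bases before the start of any of these genes. The main search also ran to 50 bases after the start. There Srxn1 held a match to TGACNNNGC on the other strand, TGACCTAGC, and a further AhR core. A match describes letters and not binding, and the absence of one says nothing about elements farther away.

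**Figure D1:**
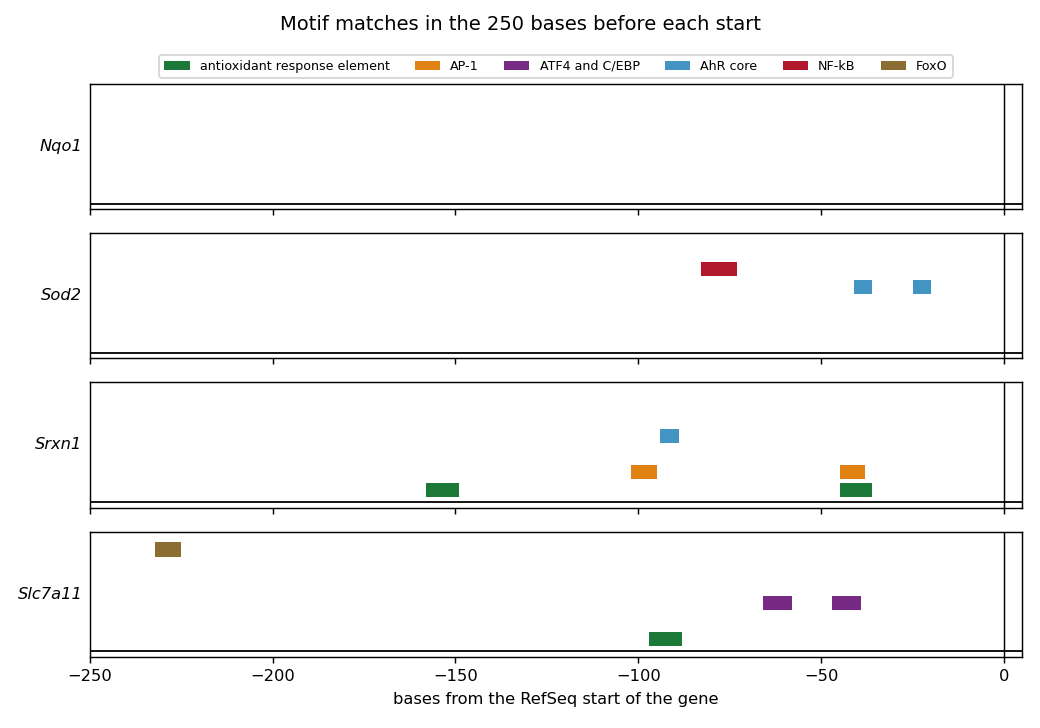
Motif matches in the 250 bases before the RefSeq start of each gene, with the distance from the start in bases on the x axis and a coloured bar for each match in its own lane. Nqo1 has none, and Sod2 has the NF-kB match and 2 AhR cores. Srxn1 has 2 AP-1 matches, 2 antioxidant element matches and an AhR core. Slc7a11 has 2 ATF4 and C/EBP matches, an antioxidant element match and a FoxO match. All antioxidant element matches are to TGAGNNNGC, which was added after the sequences had been seen.

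Nqo1 (ENSMUSG00000003849, GRCm38 chr8:107388225-107403206, minus strand) was the less abundant of the pair with lower levels in Fgf18 △HSC livers. It measured 12.4, 11.8 and 15.6 TPM in Fgf18 f/f livers against 3.38, 5.44 and 4.07 TPM in Fgf18 △HSC livers. The groups did not overlap, and the lowest Fgf18 f/f liver stood 2.17 times above the highest Fgf18 △HSC liver. The mean went from 13.2 ± 2.02 TPM (SD, n = 3) to 4.30 ± 1.05 TPM, a log2 difference of -1.62 (SE 0.19) and 3.08 times lower. These values rest on 409 to 514 reads in Fgf18 f/f livers and 109 to 129 in Fgf18 △HSC livers, recovered from TPM and exon length. Sod2 (ENSMUSG00000006818, chr17:13006846-13040063, plus strand) was far more abundant and the steadiest of the 4 between livers of a group. Its levels were 101, 97.7 and 91.8 TPM in Fgf18 f/f livers against 35.9, 37.4 and 33.3 TPM in Fgf18 △HSC livers. Each Fgf18 f/f liver was at least 2.46 times above each Fgf18 △HSC liver. The means were 96.9 ± 4.68 and 35.5 ± 2.04 TPM, a log2 difference of -1.44 (SE 0.10). The coefficient of variation of Sod2 was 4.83 and 5.74% in the 2 groups, where that of Nqo1 was 15.2 and 24.3%. Reads of Sod2 did not come out whole with the exon length of the annotation used here and are not given.

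Srxn1 (ENSMUSG00000032802, chr2:152105516-152111376, plus strand) had the largest difference of the 4. It measured 39.2, 33.6 and 49.0 TPM in Fgf18 f/f livers against 142, 176 and 172 TPM in Fgf18 △HSC livers. No Fgf18 △HSC liver was less than 2.89 times the highest Fgf18 f/f liver. The mean went from 40.6 ± 7.81 to 163 ± 18.7 TPM, which is 4.02 times higher, and the log2 difference was 2.01 (SE 0.16). Only 104 genes of the table had a larger mean over the 6 livers. Slc7a11 (ENSMUSG00000027737, chr3:49892526-50443614, minus strand) was a low transcript in both groups. Its levels were 0.413, 0.380 and 0.467 TPM in Fgf18 f/f livers against 1.30, 1.46 and 1.53 TPM in Fgf18 △HSC livers. The 2 groups were again apart, with a factor of 2.78 between the nearest livers. Means were 0.420 ± 0.0435 and 1.43 ± 0.118 TPM, a ratio of 3.40, and the log2 difference was 1.56 (SE 0.18). Because its level is low, this difference depends on the pseudocount and was 0.77 with a pseudocount of 1 TPM and 1.74 with 0.01 TPM. Between 117 and 154 reads per Fgf18 f/f liver and between 310 and 421 per Fgf18 △HSC liver lie behind it. Slc7a11 overlaps 2 other annotated features on its own strand, Gm37692 and Gm37498, and 3 on the opposite strand, the antisense RNA Gm37854 and the processed pseudogenes Gm37826 and Gm2345. None of these was analysed here, and, since the strand setting of the counting is not given in the sources used here, reads of these features cannot be told apart from its own.

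**Figure D2:**
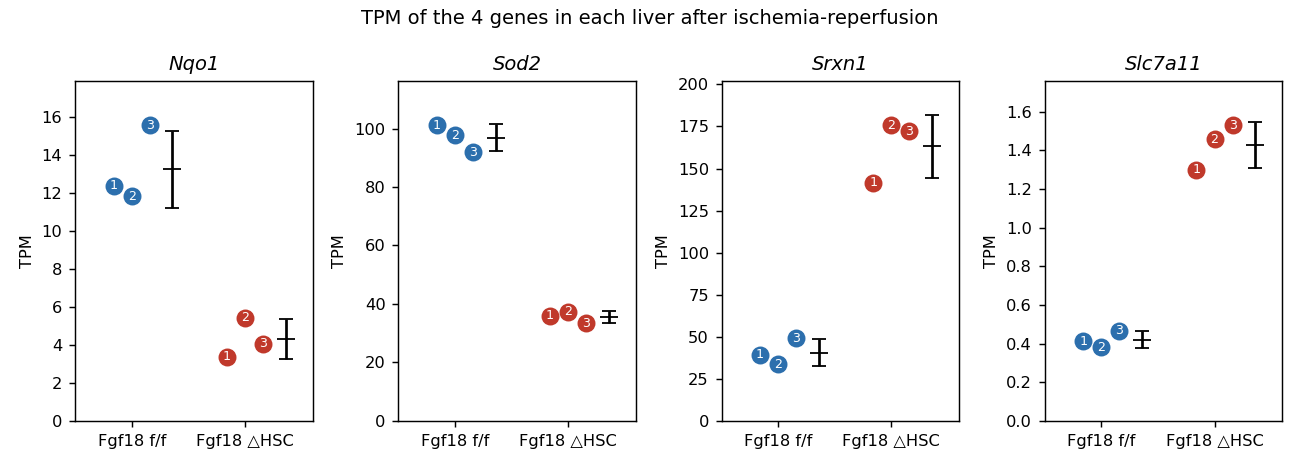
TPM of Nqo1, Sod2, Srxn1 and Slc7a11 in each liver, on a linear axis from 0 that differs between panels, with a numbered point for each liver (Fgf18 f/f in blue, Fgf18 △HSC in red) and the mean ± SD of 3 livers beside it. In every panel the 2 groups are apart, with Nqo1 and Sod2 lower and Srxn1 and Slc7a11 higher in Fgf18 △HSC livers.

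By size of the absolute log2 difference, Srxn1 ranked 300, Nqo1 616, Slc7a11 710 and Sod2 888 of 3201 genes, so none of them is among the extremes of this selected table. Non-overlap of the 4 genes is likewise the rule in the table and not a mark of these genes. What sets them apart from one another is the direction, and this can be read within a single library, where scaling between libraries plays no part. In Fgf18 f/f livers there were 3.17, 2.84 and 3.15 TPM of Srxn1 for each TPM of Nqo1. In Fgf18 △HSC livers there were 41.9, 32.3 and 42.3. The mean ratio of Srxn1 to Nqo1 was thus 12.7 times higher. The ratio of Slc7a11 to Sod2 went from 0.00389 to 0.00508 in Fgf18 f/f livers to 0.0362 to 0.0458 in Fgf18 △HSC livers. Its mean was 9.26 times higher, and those of Slc7a11 to Nqo1 and Srxn1 to Sod2 were 10.7 and 10.9 times higher. Within a direction the ratios moved little. Sod2 to Nqo1 was 5.91 to 8.27 in Fgf18 f/f livers and 6.88 to 10.6 in Fgf18 △HSC livers, which overlap. Srxn1 to Slc7a11 was 88.3 to 105 against 109 to 121, which do not overlap but differ in the mean by a factor of only 1.19.

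Rescaling each liver to the median ratio over the listed genes shifted all differences down, by a median of 0.77. It lowered the share of higher genes among those that passed from 58.1 to 21.9%. The listed genes had been selected for differing, and 2083 had a higher mean log2 value in Fgf18 △HSC livers against 1118 a lower one. A median ratio over such a set pushes differences down whether or not the livers needed rescaling. Calls of higher genes lost with livers rescaled, here and below, therefore cannot decide whether those genes rose. On that scale the log2 differences were -2.52 for Nqo1, -2.36 for Sod2, 1.10 for Srxn1 and 0.75 for Slc7a11. The direction of all 4 held, while the differences of Nqo1 and Sod2 grew and those of Srxn1 and Slc7a11 shrank. For Nqo1 and Sod2 this is no check, since a shift down can only enlarge a fall.

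Most of the other Nrf2 targets with values fell, on the side of Nqo1, and Srxn1 and Slc7a11 lay on the opposite side. Of 50 genes on the list of Nrf2 targets 21 had values, 18 of them other than Nqo1, Srxn1 and Slc7a11. By limma 16 of these 18 fell and 1 rose, where 30.0 and 41.6% of the table did so. Their median log2 difference was -1.53 beside 0.88 over all genes. All 18 averaged 1 TPM or more, and among the 1424 such genes 55.3% fell and 36.7% rose, with a median of -1.05, so a fall is also the more common direction there. Glutathione S-transferases, which join glutathione to electrophiles, led the fall. Gsta2 was 66.9, 62.5 and 58.9 TPM in Fgf18 f/f livers against 7.37, 7.67 and 5.24 TPM in Fgf18 △HSC livers (log2 difference -3.21, SE 0.16, limma adjusted p = 9.03e-06). Gstm1, the most abundant of the list, went from 3112 ± 129 to 597 ± 25.2 TPM (SD, n = 3 each, log2 difference -2.38, SE 0.11, limma adjusted p = 7.49e-06), and Gsta1 had a log2 difference of -2.35 (SE 0.27, limma adjusted p = 0.000124). Reads of these enzymes may be shared with close paralogs, which leaves the value of a single one uncertain. Akr1b8, an aldo-keto reductase, was the one other target that rose, with 1.10, 1.41 and 1.63 TPM in Fgf18 f/f livers against 2.41, 4.28 and 4.08 TPM in Fgf18 △HSC livers (log2 difference 1.29, SE 0.25, limma adjusted p = 0.00158), and with livers rescaled it no longer passed. Tkt, a transketolase of the pentose phosphate pathway, lay just inside the fold limit, at 30.4 ± 3.38 against 15.2 ± 1.56 TPM (SD, n = 3 each), and did not pass.

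**Figure D3:**
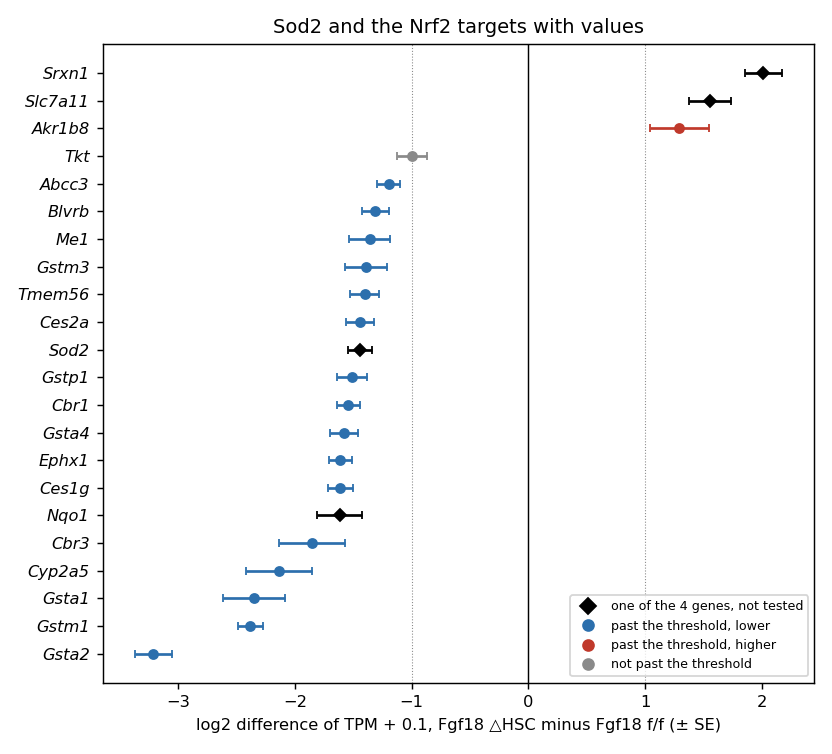
Log2 difference of TPM + 0.1, Fgf18 △HSC minus Fgf18 f/f, with its SE, for Sod2 and the Nrf2 targets with values (diamonds for the 4 genes, circles for the others, coloured by whether limma called them). Srxn1, Slc7a11 and Akr1b8 lie right of 0 and all others left of it.

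Of the genes that control Nrf2, 1 of 22 on the list had values. Bach1, the repressor that competes with Nrf2, was 43.0, 38.9 and 32.9 TPM in Fgf18 f/f livers against 19.2, 19.2 and 17.4 TPM in Fgf18 △HSC livers (log2 difference -1.03, SE 0.13, limma adjusted p = 0.000186). The groups were apart, and the call lies at the fold limit and was lost with a pseudocount of 1 or without Fgf18 f/f liver 1 or Fgf18 △HSC liver 3, where the count of this list was 0. Nfe2l2, which encodes Nrf2, and Keap1 were not analysed here, nor was Hmox1, a target that Bach1 represses.

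The regulators known for Sod2 were next set beside it. NF-kB, which is activated by TNF, IL-1 and endotoxin, had 25 of 51 listed subunits and targets with values. By limma 23 of the 25 fell and 1 rose, and their median log2 difference was -1.79. All 25 averaged 1 TPM or more, where 55.3% of genes fell and the median was -1.05, against 30.0% and 0.88 over the whole table. Tnfaip3, a feedback inhibitor of NF-kB, went from 67.7, 72.0 and 61.7 TPM to 7.17, 4.75 and 8.74 TPM (log2 difference -3.31, SE 0.21, limma adjusted p = 1.61e-05). Nfkbia, which holds NF-kB in the cytoplasm, had a log2 difference of -2.94 (SE 0.14, limma adjusted p = 9.03e-06), and the chemokine Ccl4 one of -2.65 (SE 0.20, limma adjusted p = 2.40e-05). The exception was Cxcl5, a neutrophil chemokine, at 0.461, 0.482 and 0.656 TPM against 1.35, 1.34 and 2.14 TPM (log2 difference 1.41, SE 0.24, limma adjusted p = 0.000877). For FoxO, 7 of 25 listed genes had values, of which 6 fell and 1 rose, with a median of -1.64. Here 6 of the 7 averaged 1 TPM or more, so the same shares of the table apply. Pdk4, which restrains pyruvate oxidation, and Irs2, an insulin receptor substrate, had log2 differences of -2.39 (SE 0.26, limma adjusted p = 9.39e-05) and -2.12 (SE 0.14, limma adjusted p = 1.68e-05), and the growth arrest gene Gadd45a, on the p53 list too, one of -2.24 (SE 0.15, limma adjusted p = 1.96e-05). Sod2, at -1.44, lies within the range of both lists. These ranges run from -3.31 to 1.41 for NF-kB and from -2.39 to 1.06 for FoxO. They are so wide that lying within them says nothing about Sod2.

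For Nqo1 the AhR list was used. Values were present for 8 of its 20 genes, and by limma 6 fell and 1 rose, with a median of -1.25. Among all genes 30.0% fell and 41.6% rose, with a median of 0.88. The 6 that fell averaged 1 TPM or more, where 55.3% of genes fell and 36.7% rose (median -1.05). A fall is thus also the more common direction at that level. Within the list Gsta1, which is also an Nrf2 target, had the largest fall. Ugt1a9 and Ugt1a6b, glucuronosyltransferases that share exons in one locus, had log2 differences of -2.14 (SE 0.23, limma adjusted p = 9.17e-05) and -1.48 (SE 0.12, limma adjusted p = 3.55e-05). Cyp1a1, the best known AhR target, was at most 0.554 TPM in any liver and passed as higher (log2 difference 1.04, SE 0.37, limma adjusted p = 0.0244). Of 24 quinone reductases and related flavoproteins 5 other than Nqo1 had values, and by limma 4 fell and 1 rose. The 4 that fell averaged 1 TPM or more, so the same shares of the table apply. The carbonyl reductases Cbr1 and Cbr3 fell with log2 differences of -1.54 (SE 0.10, limma adjusted p = 1.67e-05) and -1.85 (SE 0.28, limma adjusted p = 0.000508), and both are on the Nrf2 list. Por, which passes electrons to cytochromes P450, had one of -1.37 (SE 0.11, limma adjusted p = 3.49e-05) and the oxidase Nox4 one of -1.50 (SE 0.19, limma adjusted p = 0.000205). With livers rescaled, no gene of the NF-kB, FoxO and AhR lists passed as higher by limma, so that Cxcl5 and Cyp1a1 lost their call there, and at an unadjusted p under 0.05 the count was 1, on the NF-kB list.

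AP-1, the known second inducer of Srxn1, moved in both directions. Of 43 AP-1 subunits and early stress genes 17 had values, and by limma 9 rose and 7 fell, with a median of 1.08. Over all genes 41.6% rose and 30.0% fell, with a median of 0.88. Of the 17, 16 averaged 1 TPM or more, where 36.7% of genes rose and 55.3% fell (median -1.05). Among the subunits, Fosl1 was 2.47, 2.60 and 2.54 TPM in Fgf18 f/f livers against 11.9, 11.8 and 16.6 TPM in Fgf18 △HSC livers (log2 difference 2.34, SE 0.16, limma adjusted p = 1.81e-05). Fosb went the other way, from 12.6, 10.7 and 6.05 to 1.68, 0.797 and 1.51 TPM (log2 difference -2.78, SE 0.34, limma adjusted p = 0.000161). Jun and Jund also differed in sign, with log2 differences of 1.10 (SE 0.23, limma adjusted p = 0.00255) and -1.02 (SE 0.15, limma adjusted p = 0.000361), and both were named after their values were seen. The largest rise of the list was that of Ctgf, a matrix-associated growth factor, from 0.576 ± 0.182 to 6.57 ± 0.455 TPM (SD, n = 3 each, log2 difference 3.34, SE 0.22, limma adjusted p = 1.76e-05). The heat shock gene Hspa1b had a log2 difference of 1.95 (SE 0.24, limma adjusted p = 0.000179), with a near-identical neighbour, Hspa1a. Dusp2, a phosphatase of MAP kinases, and the stress gene Gadd45g had differences of -1.61 (SE 0.28, limma adjusted p = 0.000879) and -1.44 (SE 0.10, limma adjusted p = 1.81e-05). With livers rescaled 4 of the 17 passed as higher and 7 as lower. That rescaling favours falls by the way it was made, so it does not settle the balance of this list.

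ATF4, the known second inducer of Slc7a11, had 9 of 48 listed genes with values. By limma 7 rose, and the other 2 did not pass the fold limit, with a median of 1.23. Among all genes 41.6% rose and 30.0% fell, with a median of 0.88, so a rise is also the more common direction there. Of the 9, 8 averaged 1 TPM or more, where 36.7% of genes rose and 55.3% fell (median -1.05). Slc7a5, which brings in large neutral amino acids, was 0.907, 0.787 and 0.584 TPM in Fgf18 f/f livers against 1.96, 2.19 and 2.48 TPM in Fgf18 △HSC livers (log2 difference 1.44, SE 0.20, limma adjusted p = 0.000325). Psat1, of serine synthesis, and Mthfd2, of mitochondrial folate metabolism, had log2 differences of 1.35 (SE 0.22, limma adjusted p = 0.000676) and 1.45 (SE 0.21, limma adjusted p = 0.000393). Like Slc7a11 these are low transcripts. Chac1, which breaks glutathione down and is among the best known ATF4 targets, lay on the other side of 0, at 21.9, 17.7 and 14.0 TPM against 8.63, 10.7 and 7.81 TPM (log2 difference -0.96, SE 0.19, limma adjusted p = 0.00171). Calls of this list were also lost with livers rescaled, which by itself does not decide whether its genes rose. With livers rescaled none of the 9 passed as higher by limma (2 at an unadjusted p under 0.05) and 1 passed as lower, while the sign of all 9 held. With a pseudocount of 1 TPM, which is close to the level of most of them, no gene of the list passed the fold limit.

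p53, a known repressor of Slc7a11, had 7 of 23 listed genes with values, of which by limma 3 rose and 3 fell (median 0.92). The shares among all genes were 41.6% higher and 30.0% lower (median 0.88). Trp53, which encodes p53, was 2.64, 2.60 and 3.02 TPM in Fgf18 f/f livers against 6.47, 7.05 and 6.78 TPM in Fgf18 △HSC livers (log2 difference 1.27, SE 0.13, limma adjusted p = 7.50e-05). Bbc3, which promotes apoptosis, had a log2 difference of 1.61 (SE 0.19, limma adjusted p = 0.000149). The death receptor Fas and Trp53inp1 fell, with differences of -1.29 (SE 0.11, limma adjusted p = 3.81e-05) and -1.13 (SE 0.14, limma adjusted p = 0.000202). With livers rescaled 3 of the 7 passed, all as lower, and Trp53 and Bbc3 lost their call.

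**Figure D4:**
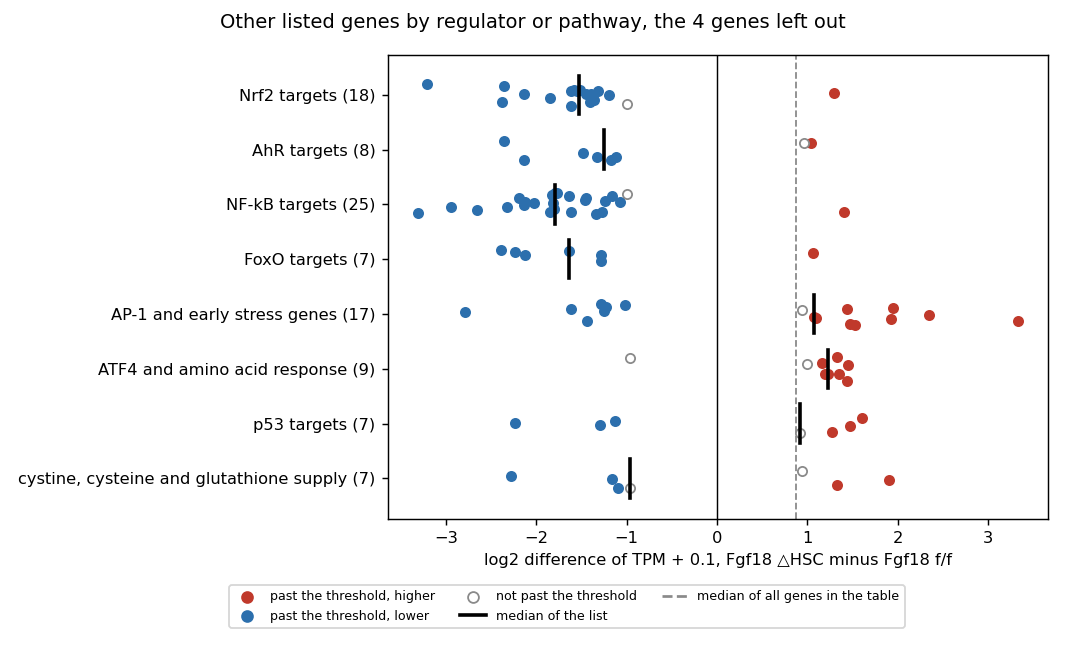
Log2 difference of TPM + 0.1, Fgf18 △HSC minus Fgf18 f/f, of each listed gene with values other than the 4 (number in brackets), by regulator or pathway, with a black bar for the median of the list and a dashed line for the median of all genes in the table (0.88). The Nrf2, NF-kB, FoxO and AhR lists lie mostly left of 0, the ATF4 list mostly right of it and the AP-1 and p53 lists on both sides.

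The pathways in which the 4 genes work held few other genes with values. Of 36 genes for the supply of cystine, cysteine and glutathione, 7 other than Slc7a11 had values, and by limma 2 rose and 3 fell (median -0.96). Beside this and the next lists, 41.6% of the whole table rose and 30.0% fell (median 0.88). Among genes that averaged 1 TPM or more, 36.7% rose and 55.3% fell (median -1.05). Slc1a5, a glutamine transporter, rose (log2 difference 1.34, SE 0.26, limma adjusted p = 0.00164), as did Bhmt, which remakes methionine from homocysteine and has a pseudogene copy in the table, Bhmt-ps1, at 118, 129 and 200 TPM against 588, 619 and 441 TPM (log2 difference 1.91, SE 0.22, limma adjusted p = 0.00013). Ggt6, of the gamma-glutamyl transferase family, Oplah, which recovers glutamate from oxoproline, and the glutamate transporter Slc1a2 fell, with log2 differences of -2.27 (SE 0.23, limma adjusted p = 7.58e-05), -1.16 (SE 0.12, limma adjusted p = 7.58e-05) and -1.09 (SE 0.26, limma adjusted p = 0.00429). In the family of superoxide, peroxide and thiol enzymes, which holds Sod2 and Srxn1, 2 others of 41 had values. Gpx3, the plasma glutathione peroxidase, and Sesn2, a stress-induced sestrin that is on the ATF4 list too, rose with log2 differences of 1.24 (SE 0.23, limma adjusted p = 0.00124) and 1.23 (SE 0.18, limma adjusted p = 0.000459). Slc1a5, Bhmt, Gpx3 and Sesn2 lost their call with livers rescaled. Of 27 ferroptosis genes, a form of death from lipid peroxidation that cystine uptake through Slc7a11 restrains, 6 others had values and by limma 4 fell (median -1.16). Hamp, the iron hormone hepcidin, was 2712 ± 344 TPM in Fgf18 f/f livers against 491 ± 114 TPM in Fgf18 △HSC livers (SD, n = 3 each, log2 difference -2.49, SE 0.20, limma adjusted p = 2.97e-05). The iron importer Slc39a14 and Gch1, of tetrahydrobiopterin synthesis, had differences of -1.16 (SE 0.14, limma adjusted p = 0.000173) and -1.22 (SE 0.12, limma adjusted p = 7.62e-05).

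The genes whose levels followed each of the 4 most closely over the 6 livers were then taken, as a description. Each r is over 6 livers in 2 groups that lie apart, and mostly measures that gap, since between 264 and 644 of the genes that averaged 1 TPM or more over the livers reached an r of 0.95 with each of the 4. Closest to Nqo1 were Ehhadh, of peroxisomal fatty acid oxidation (r = 0.997), Cyp2e1, a pericentral hepatocyte cytochrome P450 (r = 0.997), and the glucuronosyltransferase Ugt2b1 (r = 0.995). Sod2 was most like Chic2, Gadd45g and Hsd17b11 (r at least 0.999 for each). For Srxn1 these were Tor3a, Tuba1a, an alpha-tubulin, and Sparc, a matrix glycoprotein (r = 0.998 for each). Slc7a11 ran closest to Bcdin3d (r = 0.999), Tug1, a long noncoding RNA (r = 0.999), and Peak1 (r = 0.998).

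Markers of liver cell types differed between the groups as the 4 genes did, on the side of Nqo1 and Sod2 for the few hepatocyte markers with values and on the side of Srxn1 and Slc7a11 for most other cells. In whole liver, fewer cells of a type and less RNA per cell cannot be told apart. Of 12 hepatocyte markers only 2 had values, Cyp2e1 and Pck1 (the latter also on the FoxO list), and the other 10 were not analysed here, so these 2 genes from a table selected for differences do not stand for hepatocytes as a whole. Both fell by limma, their summed level going from 2018 to 2413 TPM in Fgf18 f/f livers to 593 to 826 TPM in Fgf18 △HSC livers. The markers of most other cells rose, in a table where 41.6% of all genes rose by limma, 30.0% fell and the median log2 difference was 0.88. Of 14 HSC markers 9 had values and 7 of these rose (summed 3.25 to 4.71 against 10.9 to 15.1 TPM), of 12 sinusoidal endothelial markers 4 and all 4 rose (12.3 to 14.7 against 27.7 to 40.1 TPM), and of 16 Kupffer cell and macrophage markers 7 and 6 rose (30.8 to 38.5 against 101 to 142 TPM). Of 8 erythroid markers 4 had values and all 4 globins rose, from 70.9 to 116 to 396 to 539 TPM in sum. Of 10 cholangiocyte markers 7 had values, 3 rose and 1 fell (28.64 to 30.96 against 52.2 to 81.4 TPM). The 7 neutrophil markers with values, of 14, split into 4 that rose and 3 granule genes, Camp, Ngp and Ltf, that fell (25.7 to 29.6 against 27.2 to 69.5 TPM), and both lymphocyte markers with values, of 12, fell. No marker with values was at 0 in any liver, and with livers rescaled 3 of the HSC, 2 of the macrophage, 2 of the cholangiocyte, 1 of the neutrophil and all 4 of the erythroid markers passed as higher by limma, and none of the endothelial ones (2 at an unadjusted p under 0.05). Their part in the differences of Nqo1, Sod2, Srxn1 and Slc7a11 was not tested.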

How the data were processed

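RNA-seq of 6 mouse livers was analysed from one deposited table. According to the methods and labels, the authors isolated total RNA with Trizol, made stranded mRNA libraries, trimmed reads with cutadapt 2.5, aligned them to GRCm38 (mm10) with HISAT2 2.1.0, counted them per gene with featureCounts 1.6.3 and compared the groups with DESeq2. The values deposited by the authors were taken as TPM. The columns of the authors' own comparison (log2 fold change, p-value, adjusted p-value, direction) were used only to see how the table had been filtered. The level of every gene outside the table is not analysed here.

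From TPM and the joined exons of GENCODE M21, which matched 3196 of the 3201 genes, reads came out whole within 0.02 reads in 92.2 to 93.1% of the values below 5000 reads, and in all livers for 2932 genes. Listed genes held 3061991 to 4759171 reads per Fgf18 f/f liver and 1483019 to 1999203 per Fgf18 △HSC liver. Library totals are unknown, and reads set the counting error only. The groups were compared with limma 3.58.1 in R 4.3.3 (lmFit, eBayes with trend, two-sided) on log2(TPM + 0.1) with no block, and p-values were adjusted over all 3201 genes. The fit was tested on simulated data. As alternatives, the pseudocount was set to 1 or 0.01, genes averaging under 1 TPM were dropped, each liver was divided by its median ratio to the others, and fits were run with no trend, with a replicate block, by limma-voom on the recovered reads and without each liver in turn.

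The 4 genes, the gene lists and the tests were chosen with earlier results of these data known. Genes named from a list were all those with values where at most 6 had them, and otherwise the 3 largest differences in each direction among genes that averaged 1 TPM or more in either group and did not overlap. Tkt, Cyp1a1, Jun, Jund, Hspa1a and Bhmt-ps1 fall outside this rule and were named after their values were seen. Promoters came from RefSeq (GRCm38.p6), with all 4 genes matched, and were searched in Python 3.11.15. One gene that the rule would name is not reported here. Protein sequences were not used here.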

Additional observations from a re-analysis of the deposited data

How the results depend on the processing

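The direction of the 4 genes held under all alternatives run. With livers rescaled, log2 differences were -2.515 (Nqo1), -2.356 (Sod2), 1.102 (Srxn1) and 0.754 (Slc7a11), and for Slc7a11 also 0.773 and 1.743 at pseudocounts of 1 and 0.01 and 1.767 by limma-voom. Slc7a11 has a mean under 1 TPM, so the filter on low values gave no value for it, nor did limma-voom for Sod2, whose reads did not come out whole. Of all genes 2294 passed (1333 higher, 961 lower), against 832 (266 and 566) at a pseudocount of 1, 1309 (522 and 787) among the 1424 genes that averaged 1 TPM or more and 1424 (312 and 1112) with livers rescaled. At a pseudocount of 1, 0 genes passed for Nrf2 control, ATF4 and the superoxide list, and 3 for cystine supply. With livers rescaled 1 passed for ATF4, 3 for p53 and 0 for the superoxide list, and by limma-voom 3 of the 3 quinone reductases it could test. Other settings gave a similar difference or a similar total count in 101 of 119 results. Counts were compared in total and not by direction. The AP-1 list thus counts as similar with livers rescaled, although its 9 higher and 7 lower genes became 4 and 7.

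Leaving out each liver gave -1.798 to -1.463 for Nqo1, -1.483 to -1.40 for Sod2, 1.886 to 2.158 for Srxn1, 1.5 to 1.619 for Slc7a11, 2120 to 2330 genes over the table and 0 to 1 for Nrf2 control. Livers with the same number did not vary together (correlations of deviations 0.057, 0.006 and 0.031), and with the replicate block 2300 genes passed. Counts per liver limit Slc7a11 and Nqo1 most.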
